A study of Mus musculus with 6 samples.

Results

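The genes described here are 10 genes of the Notch pathway in the mouse uterus: the receptors *Notch1*, *Notch2*, *Notch3* and *Notch4*, the ligands *Dll1*, *Dll4*, *Jag1* and *Jag2*, and the target genes *Hes1* and *Hey1*. They were chosen by gene symbol, and 10 of the 23420 genes in the table carried such a symbol. All 10 genes passed a filter of a mean count of 10 or more over both genotypes, as did 15696 genes of the whole table.

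The study asked what the transcription factor FOXO1 does in the uterus around the time of implantation, and compared uterine RNA of *Foxo1f/f* control females with that of *PgrCre/+ Foxo1f/f* females, called *Foxo1d/d*. All mice were C57BL/6J females, 8 weeks old, mated with vasectomized males and collected at pseudopregnancy day (PPD) 4.5. Each genotype had 3 libraries, and the RNA in each library came from a pool of 2 females. The floxed allele is carried by both genotypes, and Cre made from the *Pgr* locus removes the second major coding exon of *Foxo1* in cells that express PGR, in the uterus as well as the pituitary and the ovary. Cells without PGR keep the gene, and the rest of the transcript can still be counted after the deletion.

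The values analysed were the authors' mean raw counts of each gene, with 1 mean for each genotype. The mean total was 26125014 counts per library in *Foxo1f/f* and 27257963 in *Foxo1d/d*. Single libraries were not analysed here, so the spread between pools is unknown, no test between genotypes was made here and no difference below was checked against replicates. The log2 ratio is that of *Foxo1d/d* over *Foxo1f/f*, taken from the mean counts with 1 added and divided by the total of the genotype. The 95% interval beside it, called the counting interval, is the exact Clopper-Pearson interval from the counts summed over the 3 libraries of each genotype. It covers counting error only and is narrower than an interval over mice would be. The level of a gene is its CPM, the count relative to the total count of the genotype, divided by the length of its transcript in kb. It is the scale on which different genes were compared. A gene called the highest of a list is so by this length, and by coding length another gene led several lists.

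Notch receptors are single-pass proteins of the cell surface that are activated by ligands of the Delta and Jagged families on a neighbouring cell. Binding leads to cleavage of the receptor, first by an ADAM protease and then by γ-secretase, and the freed intracellular domain enters the nucleus, where it joins the DNA-binding protein RBPJ and a Mastermind coactivator on target genes such as those of the HES and HEY repressors. In the uterus the pathway is known from the blood vessels, which are remodelled around implantation, and from the differentiation of the endometrial stroma into decidua.

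*Foxo1*, the deleted gene, was read first as a check of the labels. It averaged 3941 counts in *Foxo1f/f* against 1456 in *Foxo1d/d*, a log2 ratio of -1.50 (95% interval from -1.55 to -1.45). The direction was that of the labels, and *Foxo1* counts were still present in *Foxo1d/d* uteri. The tissue was checked with *Pgr* and *Esr1*, the progesterone and estrogen receptor genes, the homeobox genes *Hoxa10* and *Hoxa11* of the uterine stroma, the epithelial keratin gene *Krt8*, the gland factor *Foxa2* and the smooth muscle actin gene *Acta2*, and 7 of these 7 markers were counted in both genotypes. The lowest of them was *Foxa2*, with mean counts of 280 in *Foxo1f/f* against 300 in *Foxo1d/d*, and the marker with the highest level was *Acta2*. *Pgr* averaged 5469 counts in *Foxo1f/f* against 6551 in *Foxo1d/d*.

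None of the 10 Notch genes differed between the genotypes by more than 1.5-fold, in either direction. Across the 15696 genes with a mean count of 10 or more, 5.43% were more than 1.5-fold higher and 3.51% more than 1.5-fold lower in *Foxo1d/d*, which is 8.94% past 1.5-fold in either direction. Among the 11910 genes with a mean count of 200 or more, the range in which the Notch genes lie, the shares were 2.59% higher, 1.86% lower and 4.46% in either direction. Beside these shares, a count of 0 among 10 genes is no result about the Notch genes as a set. The median log2 ratio was -0.05 over the 10 genes and 0.02 over all genes. The counting interval lay above 0 for 4 of the 10, *Notch1*, *Notch3*, *Hes1* and *Hey1*, beside 36.4% of all genes. It lay below 0 for 5 of the 10, *Notch2*, *Notch4*, *Dll1*, *Dll4* and *Jag1*, beside 27.1% of all genes, and the interval of *Jag2* included 0. Intervals without 0 were common, at 63.6% of the genes with a mean count of 10 or more and 69.9% of those with a mean count of 200 or more. The farthest from 0 was *Dll4*, with a log2 ratio of -0.33, and 21.3% of all genes, or 13.7% of those with a mean count of 200 or more, had a larger absolute ratio.

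**Figure D1:**
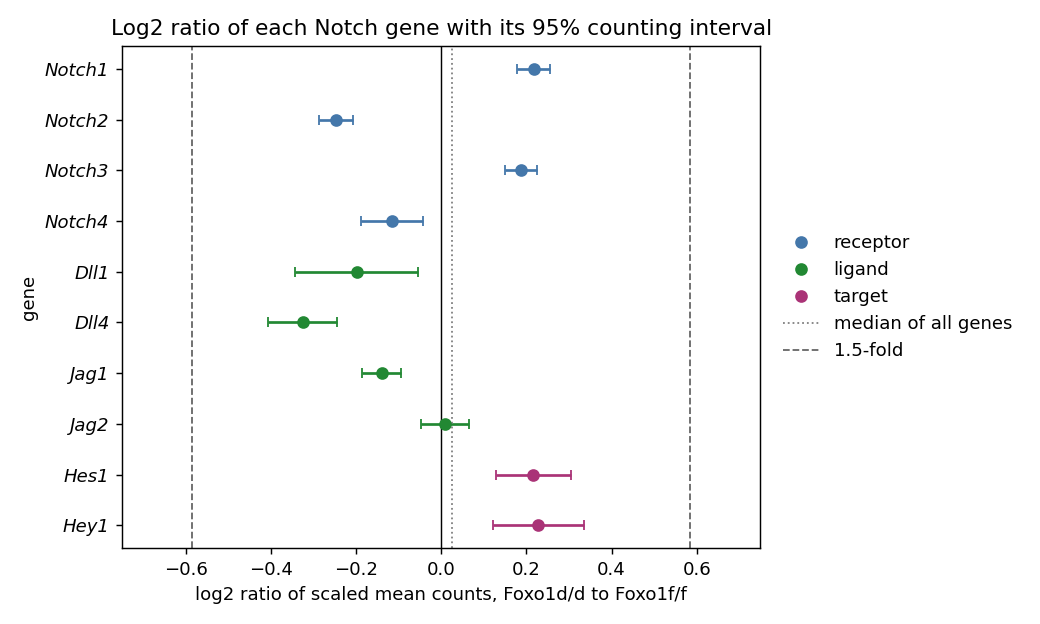
Log2 ratio of *Foxo1d/d* to *Foxo1f/f* (x axis) for each of the 10 Notch genes (y axis), with points for the ratio of mean counts and bars for the 95% counting interval, which does not hold the spread between pools. Every point lies inside the dashed lines at 1.5-fold, and the points run from -0.33 for *Dll4* to 0.23 for *Hey1*.

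**Figure D2:**
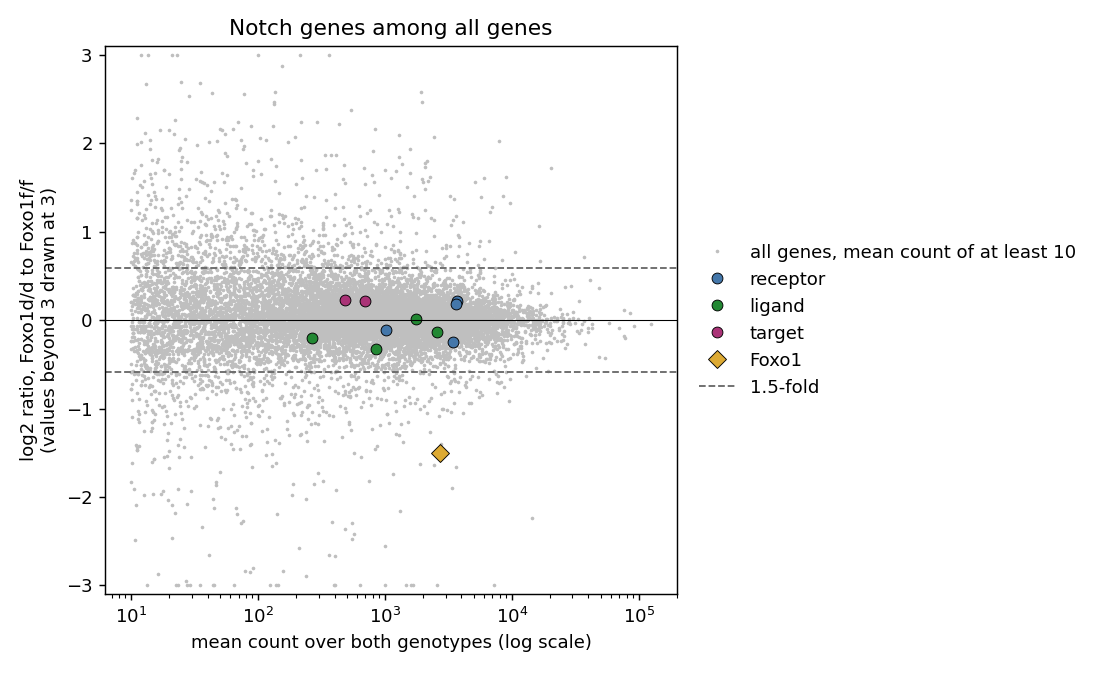
Mean count over both genotypes (x axis, log scale) against the log2 ratio of *Foxo1d/d* to *Foxo1f/f* (y axis) for the 15696 genes with a mean count of 10 or more, in grey, with the Notch genes coloured by role. The Notch genes lie within the band of all genes at their counts, while *Foxo1* lies at -1.50.

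In *Foxo1f/f* uteri, the Notch genes spanned a range of levels, from 2.96 CPM per kb for *Dll1* to 18.0 for *Jag1*. *Jag1* was followed by *Hes1* at 16.5, *Notch3* at 15.9, *Notch1* at 13.5, *Notch2* at 13.3 and *Jag2* at 12.7. Then came *Dll4* at 9.41, *Hey1* at 6.83 and *Notch4* at 6.01. By their counting intervals, the levels of the neighbours *Hes1* and *Notch3* overlapped in *Foxo1f/f*, as did those of *Notch1* and *Notch2* and those of *Notch2* and *Jag2*. In *Foxo1d/d* uteri the highest level was that of *Hes1*, at 19.2, followed by *Notch3* at 18.1, *Jag1* at 16.3, *Notch1* at 15.7, *Jag2* at 12.8 and *Notch2* at 11.2. *Jag1*, *Notch2* and *Dll4* stood lower in the order than in *Foxo1f/f*. *Hey1*, at 8.00, stood next to *Dll4*, at 7.51, and their counting intervals overlapped, as did those of *Hes1* and *Notch3* and those of *Jag1* and *Notch1*. *Notch4*, at 5.55, and *Dll1*, at 2.58, were the lowest in *Foxo1d/d* too. The order rests on the transcript length used, from 1468 bases for *Hes1* to 10500 for *Notch2*. With the coding length in its place, 4 of the 10 genes kept their rank in *Foxo1f/f*, and *Hes1*, at 28.6 CPM per kb of coding sequence, came before *Jag1*, at 27.6, with overlapping counting intervals. The largest moves were those of *Hey1* and *Notch1*. *Hey1* went from rank 8 to rank 4, at 18.4, and *Notch1* from rank 4 to rank 8, at 16.9, next to *Dll4* at 17.1. The counting interval of *Hey1* overlapped those of *Notch2*, *Notch3*, *Jag2* and *Dll4*, and that of *Notch1* overlapped those of *Jag2* and *Dll4*. By coding length *Hes1* and *Jag1* held ranks 1 and 2 in *Foxo1d/d* too, so the lower place of *Jag1* there was seen by transcript length only.

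**Figure D3:**
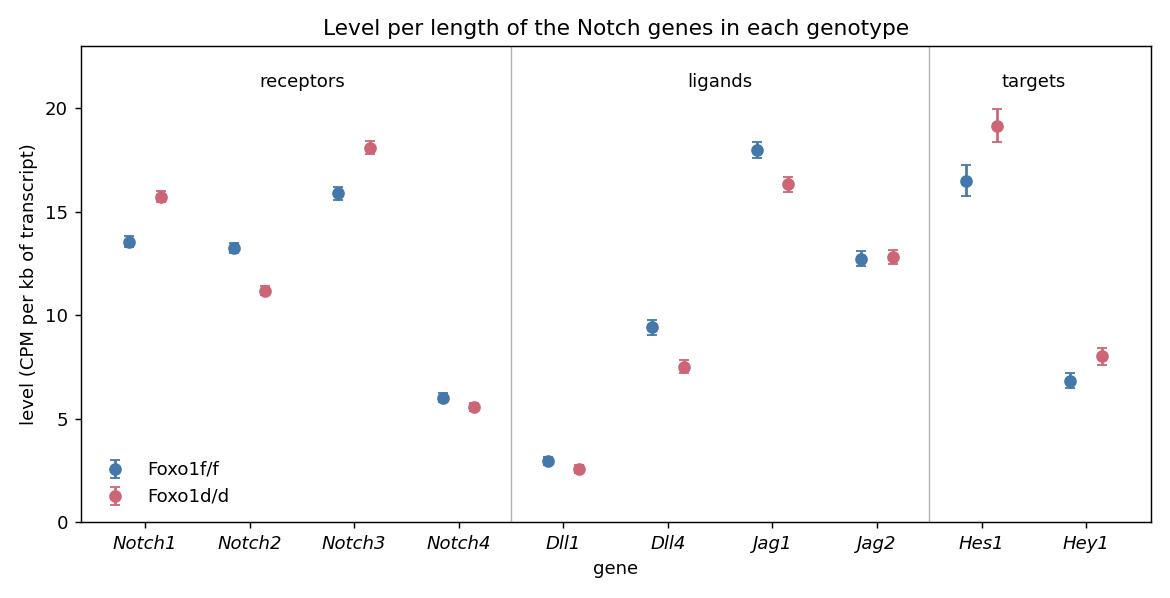
Level of each Notch gene (x axis) in CPM per kb of transcript (y axis), with *Foxo1f/f* in blue and *Foxo1d/d* in red; points are the value of the authors' mean and bars the 95% counting interval. *Notch1* and *Notch2* lie at 13.5 and 13.3 in *Foxo1f/f* and at 15.7 and 11.2 in *Foxo1d/d*.

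The 4 receptor genes divided into a pair with more counts and a pair with fewer counts in *Foxo1d/d*. *Notch1*, a receptor of broad expression that is needed for the formation of blood vessels, averaged 3354 counts in *Foxo1f/f* against 4067 in *Foxo1d/d*. Its log2 ratio was 0.22 (95% interval from 0.18 to 0.26), or 16.2% more in *Foxo1d/d*. *Notch3*, the receptor typical of pericytes and vascular smooth muscle, averaged 3328 and 3954 counts. These gave a log2 ratio of 0.19 (95% interval from 0.15 to 0.23), close to that of *Notch1*. *Notch2*, a receptor found in many tissues, was on the other side, with 3635 counts on average in *Foxo1f/f* against 3197 in *Foxo1d/d*, which is a log2 ratio of -0.25 (95% interval from -0.29 to -0.21). *Notch4*, a receptor largely restricted to endothelial cells, averaged 1036 and 998 counts, a log2 ratio of -0.12 (95% interval from -0.19 to -0.04). Ratios larger than that of *Notch2* in absolute size were found in 29.4% of all genes, than that of *Notch1* in 33.9%, than that of *Notch3* in 39.1% and than that of *Notch4* in 57.6%; among genes with a mean count of 200 or more these shares were 21.3%, 25.8%, 31.1% and 51.4%. Summed over the 4 receptors, the counts were 435 CPM in *Foxo1f/f* against 448 CPM in *Foxo1d/d*, a log2 ratio of 0.04 (95% interval from 0.02 to 0.07), so that the opposite differences largely cancelled in the sum.

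Of the 4 ligand genes, 3 had lower scaled counts in *Foxo1d/d* and *Jag2* did not differ beyond counting error. *Dll4*, the Delta ligand of arteries and sprouting vessel tips, averaged 921 counts in *Foxo1f/f* against 767 in *Foxo1d/d*, a log2 ratio of -0.33 (95% interval from -0.41 to -0.25). Its scaled count in *Foxo1d/d* was 0.798 times that in *Foxo1f/f*, and it was the only Notch gene past a lower threshold, set at 0.32 on the log2 scale, that 9% of all genes passed downward. *Dll1*, a Delta ligand with the fewest counts of the 10 genes, averaged 277 and 252 counts, and its interval of -0.34 to -0.06 around a log2 ratio of -0.20 was the widest. *Jag1*, the Jagged ligand with the highest level of the ligands in both genotypes, averaged 2636 and 2496 counts, a log2 ratio of -0.14 (95% interval from -0.19 to -0.09). The other Jagged ligand, *Jag2*, averaged 1699 and 1783 counts, which is a log2 ratio of 0.01 (95% interval from -0.05 to 0.06), and its sign turned to negative, at -0.02, when the ratios were centred on the median gene. The summed counts of the 4 ligands, in CPM, were 212 in *Foxo1f/f* against 194 in *Foxo1d/d*, a log2 ratio of -0.12 (95% interval from -0.16 to -0.09).

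Both target genes had more scaled counts in *Foxo1d/d*. *Hes1*, a basic helix-loop-helix repressor that Notch signals switch on in many tissues, averaged 632 counts in *Foxo1f/f* against 766 in *Foxo1d/d*, a log2 ratio of 0.22 (95% interval from 0.13 to 0.30). *Hey1*, a related repressor that responds to Notch in the vessel wall and the heart, averaged 432 and 529 counts, a log2 ratio of 0.23 (95% interval from 0.12 to 0.34). Of all genes, 34.1% had a larger absolute ratio than *Hes1* and 32.1% a larger one than *Hey1*; of the genes with a mean count of 200 or more, 26.0% and 24.0% did. HES and HEY genes are also controlled by signals other than Notch, and their counts are no measure of receptor activity. Of the 9 genes of the HES and HEY family, 5 had a mean count of 10 or more, all 5 with a log2 ratio above 0, as 55.1% of all genes had, and none past 1.5-fold, at a median of 0.22. The other 3 of these 5, named after their values were seen, were *Hes6* at 0.23, *Heyl* at 0.19 and *Hey2* at 0.03, where the counting interval of *Hey2* (-0.11 to 0.17) included 0. *Hes2*, *Hes3*, *Hes5* and *Hes7* had mean counts of at most 9.67 in either genotype.

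Ratios between members within a genotype do not depend on how the genotypes are scaled to each other. Their size rests on the transcript length used, but the length cancels out of the shift between genotypes. The level of *Notch1* was 1.02 times that of *Notch2* in *Foxo1f/f* and 1.41 times in *Foxo1d/d*, a log2 shift of 0.46 (95% interval from 0.41 to 0.52). *Notch3* against *Notch2* went the same way, from a level ratio of 1.20 to 1.62, a log2 shift of 0.43 (95% interval from 0.38 to 0.49). *Notch1* against *Notch3* shifted by 0.03 (95% interval from -0.02 to 0.08), so the difference among the 3 most abundant receptors was that of *Notch2* from the other 2. With coding length, an alternative for these pairs and shares chosen after seeing the data, the level ratio of *Notch1* to *Notch2* was 0.901 in *Foxo1f/f* against 1.24 in *Foxo1d/d*, and that of *Notch3* to *Notch2* was 0.977 and 1.32, where the counting interval of the first included 1. The order of these receptors in *Foxo1f/f* thus rests on the length used. As a share of the summed level of the 4 receptors, *Notch2* made up 27.2% in *Foxo1f/f* against 22.1% in *Foxo1d/d*, *Notch1* 27.8% and 31.1%, *Notch3* 32.6% and 35.8%, and *Notch4* 12.4% and 11.0%. By coding length the share of *Notch2* was 30.9% and 25.3%, and that of *Notch3* 30.2% and 33.4%. Among the ligands the share of *Jag1* was alike in both genotypes, at 41.7% and 41.6%. That of *Jag2* was 29.6% in *Foxo1f/f* against 32.7% in *Foxo1d/d*, that of *Dll4* 21.8% and 19.1%, and that of *Dll1* 6.87% and 6.57%. *Jag2* against *Dll4* gave a log2 shift of 0.33 (95% interval from 0.24 to 0.43). Of all 45 pairs of the 10 genes, the largest shift was that of *Dll4* against *Hey1*, at -0.55 (95% interval from -0.69 to -0.42). Next was *Dll4* against *Notch1*, a ligand and a receptor that meet in growing vessels, with a level ratio of 0.695 in *Foxo1f/f* against 0.477 in *Foxo1d/d* and a log2 shift of -0.54 (95% interval from -0.63 to -0.45); by coding length the level ratio was 0.696 in *Foxo1d/d*, and in *Foxo1f/f* its counting interval, from 0.971 to 1.06, included 1. The ratio of the target genes *Hes1* and *Hey1* hardly differed, at 2.41 and 2.39, or 1.55 and 1.54 by coding length, a log2 shift of -0.01 (95% interval from -0.15 to 0.12).

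**Figure D4:**
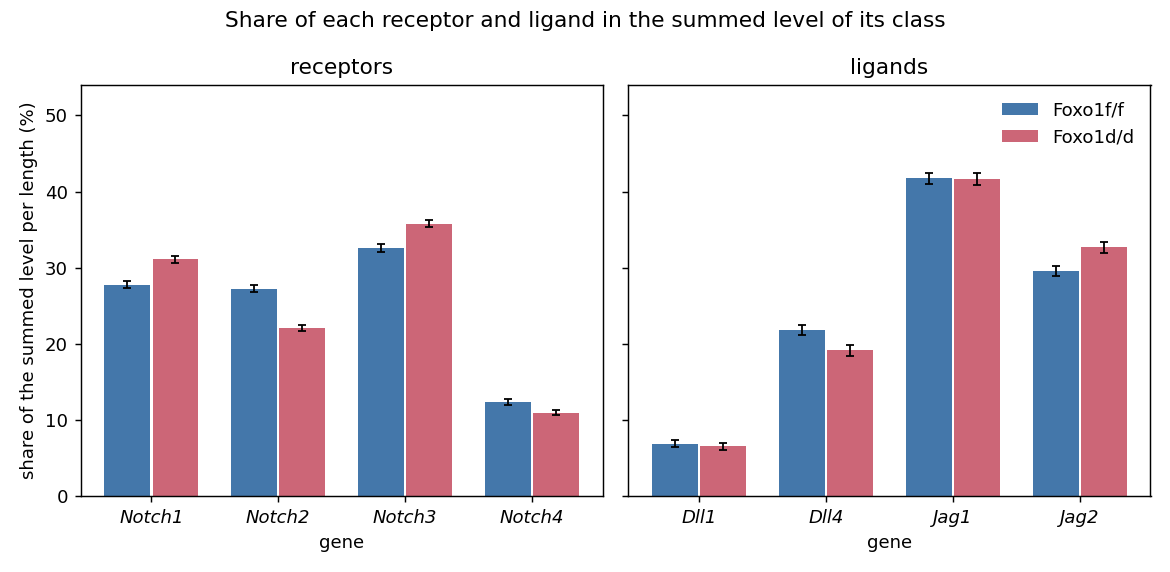
Share of each receptor (left) and ligand (right) in the summed level per length of its class, in percent (y axis), with *Foxo1f/f* in blue and *Foxo1d/d* in red; black bars are 95% counting intervals. *Notch2* has 27.2% of the receptor level in *Foxo1f/f* and 22.1% in *Foxo1d/d*, while *Jag1* has 41.7% and 41.6% of the ligand level.

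Promoter sequence was looked at because members differed in opposite directions, and 8 of the 10 genes were matched by symbol to 9 windows of 250 bases before a transcription start in RefSeq (GRCm38.p6). *Hes1* and *Hey1*, which RefSeq holds, were absent from the set of windows used here, and their promoters were not read. The windows of *Notch2* and *Dll4*, which had the largest negative ratios, and of *Notch1* and *Notch3*, the receptors with positive ratios, are shown 5′ to 3′ on the strand of the gene, with capitals for the letters CACGCG or their reverse complement CGCGTG, a motif known for HES and HEY repressors. The *Notch2* window is chr3:98013288-98013537 on the plus strand, and the *Dll4* window is chr2:119325534-119325783 on the plus strand. The *Notch1* window is chr2:26503823-26504072 and the *Notch3* window chr17:32166891-32167140, both on the minus strand.
Notch2: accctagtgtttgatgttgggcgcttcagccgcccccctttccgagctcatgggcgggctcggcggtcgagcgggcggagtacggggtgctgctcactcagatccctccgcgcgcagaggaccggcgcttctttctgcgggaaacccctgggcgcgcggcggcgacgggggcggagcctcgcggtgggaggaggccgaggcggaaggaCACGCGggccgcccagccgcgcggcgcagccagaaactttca
Dll4: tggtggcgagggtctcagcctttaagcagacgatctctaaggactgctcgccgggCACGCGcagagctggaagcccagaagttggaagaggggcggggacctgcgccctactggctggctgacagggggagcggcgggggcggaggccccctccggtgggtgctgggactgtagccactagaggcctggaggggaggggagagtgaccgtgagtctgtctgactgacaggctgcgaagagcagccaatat
Notch1: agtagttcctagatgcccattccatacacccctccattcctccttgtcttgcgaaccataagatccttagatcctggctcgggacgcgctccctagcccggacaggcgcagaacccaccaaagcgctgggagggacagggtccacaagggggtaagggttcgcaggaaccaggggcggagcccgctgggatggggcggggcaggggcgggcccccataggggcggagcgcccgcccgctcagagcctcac
Notch3: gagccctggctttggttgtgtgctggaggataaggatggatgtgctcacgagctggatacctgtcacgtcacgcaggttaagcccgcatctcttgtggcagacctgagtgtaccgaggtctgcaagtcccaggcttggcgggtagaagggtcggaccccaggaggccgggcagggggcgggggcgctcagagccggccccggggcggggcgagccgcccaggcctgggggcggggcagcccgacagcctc
CACGCG, read on both strands, was found once in *Notch2*, 42 bases before the start, and once in *Dll4*, 195 bases before it, and was not in the windows of *Notch1* or *Notch3*. Of the 8 genes with a window, *Dll1* and *Jag1* also held it and *Notch4* and *Jag2* did not, which makes 4 of the 9 windows, since 1 of the *Dll1* windows was without it, against 7.62% of all 32851 windows and 13 of the 82 windows of the other pathway genes (15.9%). Of these other pathway genes, 11 with a match passed the filter, 7 with a log2 ratio below 0 and 4 above 0. The 4 above 0 were *Snai1* at 0.59, *Rfng* at 0.47, *Psenen* at 0.12 and *Lfng* at 0.03. Of 45 without a match, 25 were below 0 and 20 above 0. The 4 Notch genes with a match all had negative ratios, beside 44.9% of all genes. Of the Notch genes with a window but no match, *Notch4* was also negative, and *Notch1*, *Notch3* and *Jag2* were positive. Of the motifs read here, CACGCG alone had a match in a window of a Notch gene, and the windows shown were picked with the ratios known. No link between the motif and the ratios was tested. The windows of the Notch genes were richer in G and C than most, with a median GC content of 65.6% against 52.4% over all windows, and the part of this in the share of matches was not tested. The forkhead motif GTAAACA, recognised by FOXO factors, was in none of the 9 windows and in 3.17% of all windows. The RBPJ motif TGGGAA, read on both strands, was also in none of the 9, and in 21.6% of all windows. The longer form GTGGGAA, which contains it, was in 5.42% of all windows, and the E-box CACGTG, in none of the 9, in 6.02%. Among the other pathway genes that passed the filter, ratios were below 0 for 4 of 4 genes with GTAAACA, beside 28 of 52 without it. For TGGGAA they were below 0 for 13 of 17 with it and 19 of 39 without it. *Maml2*, *Maml3* and *Ctbp2* held both of these motifs. With GTGGGAA, 2 of 4 were below 0, beside 30 of 52 without it. With CACGTG, 2 of 6 were below 0, beside 30 of 50 without it. No link of these motifs to the ratios was tested. A match describes these letters only, and a window without one says nothing of binding elsewhere.

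The rest of the pathway was read from lists of genes by function, which with the members came to 88 genes, 81 of them with a mean count of 10 or more. Their median log2 ratio was -0.03, beside 0.02 over all genes, and 1 gene was more than 1.5-fold higher and 0 were lower, beside 5.43% and 3.51% of all genes. That gene was *Snai1*, a repressor that drives epithelial-mesenchymal transition, with mean counts of 678 in *Foxo1f/f* against 1062 in *Foxo1d/d*, which is a log2 ratio of 0.59 (95% interval from 0.51 to 0.67), but short of 1.5-fold under each of 3 other scalings, at 0.56 by the median gene, 0.57 by the upper quartile and 0.56 by the trimmed mean of M-values. *Snai1* belongs to the list of other RBPJ target genes, where 13 of 14 genes passed the filter with a median log2 ratio of 0.16. That list also holds *Notch3*, and its gene with the highest level was *Myc*, the growth regulator, at 63.0 in *Foxo1f/f* against 57.4 in *Foxo1d/d*.

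In the lists upstream of the receptor, no gene was past 1.5-fold, beside 8.94% of all genes and 4.46% of those with a mean count of 200 or more. The ubiquitin ligases that act on the ligand to start the signal had a median log2 ratio of -0.25, with 4 of 5 genes below 0 beside 44.9% of all genes, and *Mib2* had the highest level, at 29.8 in *Foxo1f/f* against 24.8 in *Foxo1d/d*. The ligands as a class, with *Dll3* added, had a median of -0.17 over the 4 genes that passed the filter, and *Dll3* averaged 0 and 0.667 counts. Glycosyltransferases that modify the receptors and ligands had a median of 0.03 over 5 genes, with the highest level in *Poglut1* among *Foxo1f/f* values and *Rfng* among *Foxo1d/d* values. Among the other proteins that resemble Notch ligands, *Egfl7*, a secreted protein of endothelial cells, had the highest level, at 160 in *Foxo1f/f* against 138 in *Foxo1d/d*, and the 4 genes had a median of 0.02. For the genes that act in cleavage of the receptor, not all of them proteases, the median of 10 genes was -0.01, with *Adam10* the most abundant per transcript length. Its counting interval overlapped those of *Ncstn* and *Psenen* in *Foxo1f/f* and that of *Psenen* in *Foxo1d/d*. By coding length *Psenen* was the highest, at 105 in *Foxo1f/f* and 114 in *Foxo1d/d*.

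In the nucleus, 9 of the 10 genes of the activation complex passed the filter, with a median log2 ratio of -0.14 and 7 of 9 below 0, beside 44.9% of all genes. *Rbpj*, which carries the complex to DNA, averaged 3395 counts in *Foxo1f/f* against 3475 in *Foxo1d/d*, a log2 ratio of -0.03 (95% interval from -0.07 to 0.01). *Maml3*, a Mastermind coactivator singled out after its values were seen, had the lowest ratio of all pathway lists, with averages of 797 and 567 counts, which is a log2 ratio of -0.55 (95% interval from -0.64 to -0.46). In the same list the highest level was that of *Snw1*. By coding length it was that of *Rbpj*, at 85.4 in *Foxo1f/f* and 83.8 in *Foxo1d/d*, against 72.9 and 80.8 for *Snw1*. The 13 corepressor genes had a median of -0.03, with *Ctbp1* the highest in level, and the 12 genes of receptor turnover and inhibition had a median of -0.05, with *Nedd4*, a ubiquitin ligase, the highest in level. *Nrarp*, a target of Notch that limits its own pathway, averaged 462 and 519 counts, a log2 ratio of 0.11 (95% interval from 0.00 to 0.21).

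**Figure D5:**
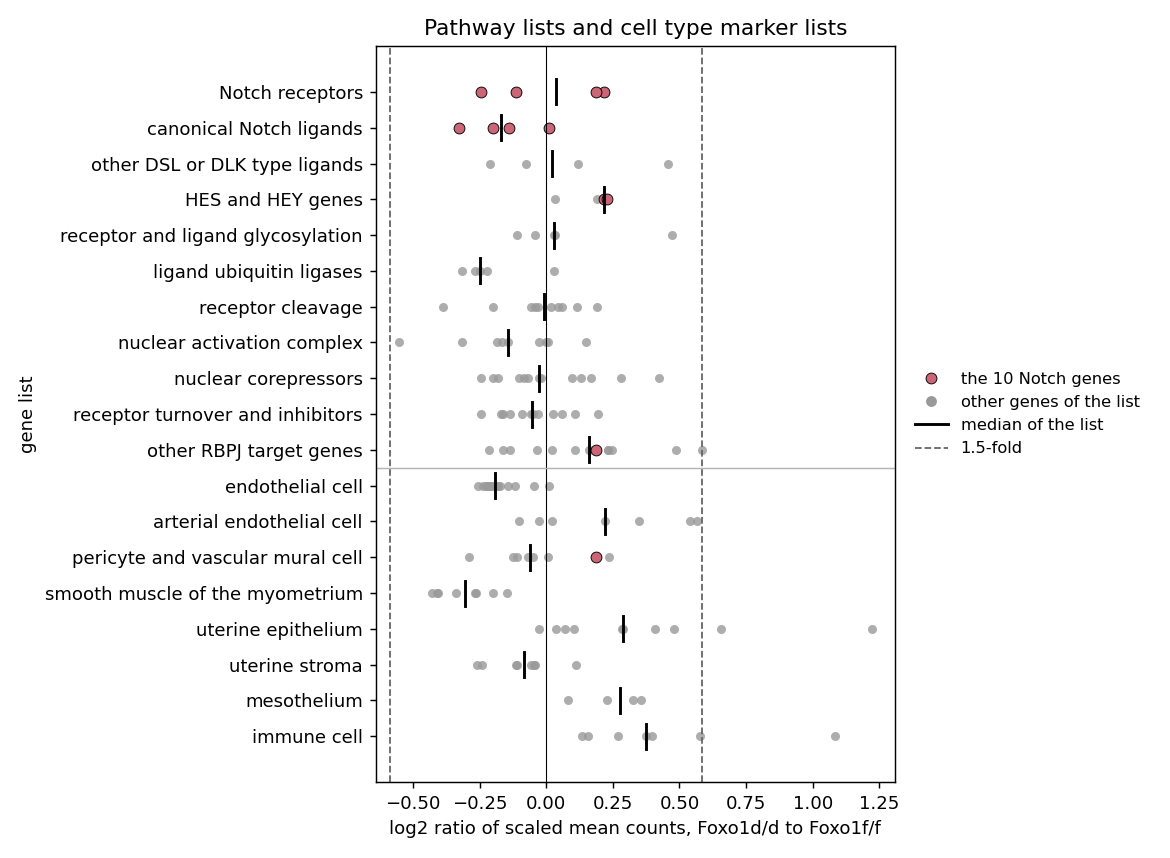
Log2 ratio of *Foxo1d/d* to *Foxo1f/f* (x axis) of every gene with a mean count of 10 or more in each pathway list (above the grey line) and each list of cell type markers (below it); black ticks are list medians, red points the 10 Notch genes. In the pathway lists *Snai1* alone reaches the dashed line at 1.5-fold, which it does not under any of 3 other scalings, while epithelial and immune markers have medians of 0.29 and 0.38.

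Whole uterus holds many cell types, and in bulk tissue fewer cells of a type and less RNA per cell cannot be told apart. Marker genes of the cell types known to express Notch genes were therefore read beside them. Of 14 endothelial markers, 13 had a log2 ratio below 0, beside 44.9% of all genes, and 0 were past 1.5-fold, with a median of -0.19. Their summed CPM were 2460 in *Foxo1f/f* against 2169 in *Foxo1d/d*, and the highest level was that of *Egfl7*. The 7 markers of arterial endothelium had 5 of 7 ratios above 0 beside 55.1% of all genes, a median of 0.22 and summed CPM of 466 and 607. Most of the difference in this sum lay in *Sox17*, with 134 and 195 CPM, *Nrp1*, with 180 and 229 and the highest level, and *Efnb2*, with 56.2 and 83.3, while the counting intervals of *Gja4*, *Unc5b* and *Bmx* included 0. Counts of whole uterus do not show which cells *Sox17*, *Nrp1* and *Efnb2* were read from. The sum is therefore no measure of arterial endothelium alone. By coding length the highest arterial level was that of *Sox17*, at 126 in *Foxo1f/f* and 183 in *Foxo1d/d*, against 65.0 and 82.7 for *Nrp1*. None of the 14 and 7 markers was at 0. *Dll4* and *Notch4*, the Notch genes most tied to endothelium, had negative ratios as 13 of the 14 endothelial markers did. The arterial median of 0.22 had the opposite sign. Relative to the sum of the 14 endothelial markers, *Dll4* shifted by -0.14 (95% interval from -0.22 to -0.06) and *Notch4* by 0.07 (95% interval from -0.01 to 0.14). *Notch1* shifted by 0.40 (95% interval from 0.36 to 0.44) against the same sum, and *Hey1* by 0.41 (95% interval from 0.30 to 0.52). The shift was 0.40 for *Hes1* (95% interval from 0.31 to 0.49), 0.37 for *Notch3* (95% interval from 0.33 to 0.41) and 0.19 for *Jag2* (95% interval from 0.13 to 0.25). It was -0.06 for *Notch2* (95% interval from -0.11 to -0.02). For *Jag1*, at 0.04, and *Dll1*, at -0.02, the interval included 0. The part of the endothelial and arterial markers in these results was not tested.

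*Notch3* itself is among the 8 markers of pericytes and vascular mural cells. The list had 3 of 8 ratios above 0 beside 55.1% of all genes, the 3 being *Notch3*, *Higd1b* and *Rgs5*, whose counting interval included 0, with a median of -0.06 and summed CPM of 1179 in *Foxo1f/f* against 1116 in *Foxo1d/d*, with *Mcam* at the highest level. By coding length the highest level in this list was that of *Rgs5*, at 385 in *Foxo1f/f* and 386 in *Foxo1d/d*, against 155 and 127 for *Mcam*. Against the other 7 markers, *Notch3* shifted by 0.30 (95% interval from 0.26 to 0.34). The smooth muscle markers of the myometrium were below 0 in 8 of 8, beside 44.9% of all genes, with a median of -0.30 and summed CPM of 7224 and 5829, and the highest level was that of *Tagln* in *Foxo1f/f* and of *Acta2* in *Foxo1d/d*. By coding length *Tagln* was the highest in both genotypes, at 1847 in *Foxo1f/f* and 1534 in *Foxo1d/d*. *Notch3* shifted by 0.50 (95% interval from 0.46 to 0.54) against the smooth muscle markers. None of these markers was at 0, and their part in the ratio of *Notch3* was not tested.

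Markers of other cell types of the uterus were read in the same way, beside 55.1% of all genes above 0, 44.9% below 0 and 5.43% more than 1.5-fold higher. Of the 10 epithelial markers, 9 had ratios above 0 and 2 were more than 1.5-fold higher, the keratin gene *Krt19* with a log2 ratio of 1.22 and *Wnt7a*, a signal of the luminal epithelium (LE), with 0.66. Their median was 0.29, their summed CPM were 797 in *Foxo1f/f* against 963 in *Foxo1d/d*, and *Cldn3* had the highest level. Immune markers were above 0 in 7 of 7, with a median of 0.38, sums of 305 and 375 and *Csf1r* at the highest level. The T cell gene *Cd3e*, at a log2 ratio of 1.09, was more than 1.5-fold higher. Stromal markers were below 0 in 7 of 8, with a median of -0.08, sums of 11446 and 11106 and *Col3a1* at the highest level, and the 4 mesothelial markers were above 0, with a median of 0.28, sums of 51.2 and 59.4 and the highest level in *Upk3b* in *Foxo1f/f* and in *Msln* in *Foxo1d/d*. None of these markers was at 0. *Notch1*, *Hes1* and *Hey1* are not tied to a single cell type. Their ratios had the sign of the medians of the epithelial, immune, mesothelial and arterial markers. Those of *Notch2* and *Jag1* had the sign of the medians of the stromal, endothelial, mural and myometrial markers. The part of these cell types in the ratios of the Notch genes was not tested.

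Some counts can hold reads of other genes. Whether the counting used strand is not given in the sources used here, so that reads of a gene and of an antisense partner cannot be told apart. In RefSeq, genes overlap *Notch1*, *Notch2*, *Notch3*, *Dll4*, *Jag2* and *Hey1*, most of them long non-coding RNA or microRNA genes, and none overlaps *Notch4*, *Dll1*, *Jag1* or *Hes1*. The one overlapping gene found in the table was *Gm14207*, a long non-coding RNA that shares 414 bases with *Dll4*, with mean counts of 109 in *Foxo1f/f* against 89.3 in *Foxo1d/d*. The values of these 6 Notch genes are uncertain to that extent.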

How the data were processed

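Uterine RNA was sequenced from 3 pools of 2 females per genotype with the Illumina TruSeq RNA protocol. The authors clipped the 5′ ends of paired reads, aligned them by STAR, took out duplicates by Picard, assigned reads to RefSeq genes by HTSeq and tested the genotypes with edgeR; versions are not given in the sources used here. The paper names the build mm10 and the submitters' processing notes mm9, and the table holds no coordinates. The deposited values used here are the authors' mean raw counts per genotype, of which all 23420 were whole after multiplication by 3, within a tolerance of 1e-06. The table also holds the authors' fold change, average log2 CPM, p-value and FDR, which were not used.

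The log2 ratio was computed from the mean counts with a pseudocount of 1, each divided by the total of its genotype. Exact 95% Clopper-Pearson intervals came from counts summed over libraries, 78375043 for *Foxo1f/f* and 81773890 for *Foxo1d/d*; intervals of levels are exact Poisson, and those of ratios between genes and of shares use a normal approximation on the counts. Reads without molecular identifiers are not independent molecules, and all intervals cover counting error only. Calls are ratios past 1.5-fold among genes whose mean count was 10 or more. The planned model across libraries was replaced by this description, since its unit, counts of single libraries, was not analysed here. Lengths are those of the longest GENCODE M21 transcript paired with a RefSeq mRNA, found for 155 of 155 listed genes, 1 of which was matched by a RefSeq synonym; 1 other listed marker is not reported here, for a reason that does not depend on its values. The steps were tested on simulated data. Python 3.11.15, pandas 2.3.3, numpy 2.4.6, scipy 1.17.1 and matplotlib 3.10.9 were used.

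The genes named are the 10 members, *Foxo1*, the defining markers of the tissue and, in each list, every gene past 1.5-fold, up to the 6 with the largest absolute ratio, with the gene of the highest level in either genotype; other genes, such as *Rbpj*, *Sox17*, *Efnb2*, *Higd1b*, *Rgs5*, *Nrarp*, *Maml3*, *Gm14207* and the remaining HES and HEY genes, were chosen after their values were seen. The members and lists were chosen with earlier results of these data known. Alternatives were another pseudocount, scalings by the median gene, the upper quartile or the trimmed mean of M-values, other thresholds and filters, and coding length.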

Additional observations from a re-analysis of the deposited data

How the results depend on the processing

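No paired analysis was possible because the labels share replicate numbers but the table gives only the mean of each genotype; for the same reason the fits without each replicate, with a replicate block and with DESeq2 size factors were not run. A pseudocount of 0.1 and the 3 other scalings gave 40 ratios for the 10 Notch genes, and all 40 lay inside the counting interval of the reported ratio. Each scaling moved every gene by the same amount, so these are not 40 separate checks. The sign was the same for 9 genes, and *Jag2* ranged from -0.02 to 0.01. The scalings moved the median of all genes by at most 0.03 on the log2 scale. No Notch gene was past 1.5-fold under any of them. At a lower threshold, 0.32 on the log2 scale, 1 Notch gene, *Dll4*, was lower and 0 were higher, and all genes gave 1968 higher and 1412 lower; at 2-fold, they gave 313 and 220. In place of 853 higher and 551 lower genes, a minimum mean count of 1 gave 1346 and 919, no filter 1588 and 1135, a minimum of 50 gave 528 and 357, and a minimum of 200, chosen after seeing the data, 309 and 222. A lower minimum only adds genes to the set, so these numbers could not fall with it. With coding length, 4 of the 10 Notch genes kept their rank in *Foxo1f/f*, since the untranslated share differs between genes. For pairs and shares it was tried after seeing the data, and 27 of 30 level ratios and 11 of 16 shares lay outside the counting interval. Several lists also had another gene at the highest level by coding length. In both genotypes it was *Ccnd1* among other RBPJ targets, *Neurl3* among ligand ubiquitin ligases, *Pofut1* among glycosyltransferases and *Dcn* among stromal markers. Among immune markers it was *Ncr1*, in *Foxo1d/d* only. Depth limits *Dll1* most, with 831 and 755 counts summed.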
